A study of Mus musculus with 36 samples.

Results

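The genes of sterol and fatty acid metabolism were followed in cultured mouse microglia and astrocytes. The 34 genes were picked by symbol, by their place in the pathway. They come from the mevalonate and sterol steps, the SREBP regulators, fatty acid synthesis and the LXR efflux genes. No cut on their values was used, but earlier results of these data were known when they were chosen. All 34 were listed and tested in microglia, among 10524 genes tested of 15385 listed. In astrocytes 33 were listed and tested, among 13842 of 14551, and Abcg1 was not in that table. Microglia and astrocytes were grown from the pooled brains of C57BL/6 mice 2 to 4 days old by the labels (4 by the study's methods), microglia by selection for CD11b from mixed glia grown for 12 days and astrocytes from the fraction left after it with an APC positive selection kit. Cells were treated for 4 h, with no genetic change in any group, and their polyadenylated RNA was sequenced. Microglia received DMSO as the vehicle, Nec-1s (N), TNF/5z-7 (T/5z), TNF/5z-7/Nec-1s (T/5z/N), TNF/Smac/zVAD (T/S/Z) or TNF/Smac/zVAD/Nec-1s (T/S/Z/N). Each of these 6 treatments had 4 libraries. The 4 astrocyte treatments, DMSO, Nec-1s, T/S/Z and T/S/Z/N, had 3 libraries each. Nec-1s is a small molecule inhibitor of the RIPK1 kinase, 5z-7 inhibits the TAK1 kinase, Smac stands for a mimetic of the protein of that name, which blocks IAP proteins, and zVAD blocks caspases. T/5z can drive RIPK1-dependent apoptosis and T/S/Z can drive necroptosis.

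Cells make cholesterol from acetyl-CoA through mevalonate, isoprenoids, squalene and lanosterol. When sterol runs low in the endoplasmic reticulum, the escort protein Scap carries SREBP proteins to the Golgi, where they are cut and freed to switch on the genes of the pathway, and Insig proteins hold Scap back when sterol is plentiful. LXR receptors answer to oxysterols in the opposite sense and switch on export pumps such as Abca1 and Abcg1. In the brain astrocytes are a main source of sterol, and microglia take up lipid from myelin and dying cells and must export or store it.

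The values are log2(FPKM + 1), where FPKM are fragments per kilobase of exon and per fixed number of mapped fragments, scaled by the authors to a common 75th percentile. A gene was called when its fold change exceeded 1.5 (0.58 on the log2 scale) and its limma adjusted p was under 0.05 over all genes tested in that table. The microglial and astrocyte tables were normalized separately, so levels are set side by side across them with no test. Depth, estimated from the spacing of low values, was 39600000 to 42300000 reads or fragments in the astrocyte libraries and 21700000 to 29500000 for replicate 4 of microglia. It is unknown for the other microglial replicates, because the values had been shifted before deposit so that each gene had the same mean in every replicate. The microglial list of 10 markers summed to between 4530 and 5757 FPKM in microglia, yet P2ry12 was at 4.27 and Tmem119 at 9.04 FPKM in DMSO. In DMSO astrocytes the astrocyte list of 10 markers summed to between 3293 and 3318 FPKM, with Gfap at 2005 FPKM. The study describes its replicates as biological and takes cultured cells from different litters, while the labels name no litter.

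On the FPKM scale, which corrects for exon length, the levels of the members in DMSO cells were ordered within each cell type. The annotations of the tables give some genes other exon lengths, such as 6144 bases in astrocytes and 2044 in microglia for Msmo1. An order therefore depends on the annotation, and no level was tested between the tables. In microglia Abca1 had the highest level of the 34, at 117 ± 7.0 FPKM (SD, n = 4), followed by Acly, the enzyme that makes cytosolic acetyl-CoA, at 64.1 ± 2.6 and Srebf2 at 47.5 ± 0.67. Srebf2, Msmo1, Fdps and Nr1h2 lay between 45.2 and 47.5 FPKM, closer together than the SD of 3.3 of Msmo1. Scd1, a stearoyl-CoA desaturase, was lowest at 0.609 ± 0.078. In astrocytes Scd2, the desaturase most used in brain, was highest at 702 ± 4.2 FPKM (SD, n = 3), followed by Hmgcs1 at 456 ± 9.8 and Msmo1 at 314 ± 20. The levels of Idi1, Scd1, Fdps and Sqle, from 144 to 159 FPKM, spanned little more than the SD of 14 of Idi1. Mylip was lowest at 1.58 ± 0.029.

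Promoters of 27 members were found in RefSeq windows of 300 bases (GRCm38.p6), 250 before and 50 after the start of the gene, with 36 windows in all. No window was matched to Fdps, Fdft1, Sqle, Stard4, Scd1, Scd2 or Abcg1. Both strands were searched for TCACNCCA, the core of the sterol response element, for its longer form TCACNCCAC, for the NF-Y box CCAAT and for TCACGTG, an E-box form that SREBP proteins also bind. CCAAT stood in 77.8% of the 27 members (21) and in 41.1% of 27025 genes with a window, or in 61.1% of the members' windows and 37.4% of all 32851. TCACNCCA stood in 3 members, Hmgcs1, Msmo1 and Srebf2, or 11.1% of members against 4.97% of genes. By window it was 8.33% for the members and 4.36% for all. TCACNCCAC, whose matches are contained in those of the shorter form, stood in Hmgcs1, or 3.7% of members against 1.44% of genes. TCACGTG stood in Hsd17b7, Insig1 and Sc5d, or 11.1% of members against 4.29% of genes, and in 8.33% of the members' windows against 3.77% of all. Of the 13 members called higher under T/5z that had a window, 11 held CCAAT, as did 9 of the 13 that were not called. A match is a description of letters and not of a bound site. The stretches of 5 members that were called higher with both stimuli and that hold TCACNCCA or TCACGTG are shown (Msmo1 was the other such member, and little of its window lies before the annotated gene start), from their upstream end to the outermost annotated gene start or to the RefSeq start, whichever came first. Each is read 5′ to 3′ on the strand of its gene. Capitals mark these motifs and CCAAT on either strand, where ATTGG is CCAAT and CACGTGA is TCACGTG read on the other strand.
Hmgcs1 (chr13:119690101-119690350, plus strand): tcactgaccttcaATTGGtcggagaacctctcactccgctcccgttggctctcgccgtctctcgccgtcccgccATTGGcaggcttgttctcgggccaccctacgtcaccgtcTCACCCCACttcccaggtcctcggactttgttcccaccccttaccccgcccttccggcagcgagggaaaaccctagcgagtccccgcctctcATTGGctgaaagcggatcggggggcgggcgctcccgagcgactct
Insig1 (chr5:28071162-28071362, plus strand): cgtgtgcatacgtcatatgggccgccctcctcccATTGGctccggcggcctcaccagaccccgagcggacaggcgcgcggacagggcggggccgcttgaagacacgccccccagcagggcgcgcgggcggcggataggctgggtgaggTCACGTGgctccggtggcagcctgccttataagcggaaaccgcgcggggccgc
Srebf2 (chr15:82147019-82147180, plus strand): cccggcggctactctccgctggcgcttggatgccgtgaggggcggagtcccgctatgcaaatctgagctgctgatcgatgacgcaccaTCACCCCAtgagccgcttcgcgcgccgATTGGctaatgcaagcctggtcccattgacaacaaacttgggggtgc
Hsd17b7 (chr1:169969242-169969455, minus strand): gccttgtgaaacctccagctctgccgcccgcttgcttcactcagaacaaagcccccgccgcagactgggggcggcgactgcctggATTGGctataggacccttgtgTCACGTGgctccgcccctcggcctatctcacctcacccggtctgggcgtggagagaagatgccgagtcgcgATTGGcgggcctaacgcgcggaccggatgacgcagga
Sc5d (chr9:42264301-42264550, minus strand): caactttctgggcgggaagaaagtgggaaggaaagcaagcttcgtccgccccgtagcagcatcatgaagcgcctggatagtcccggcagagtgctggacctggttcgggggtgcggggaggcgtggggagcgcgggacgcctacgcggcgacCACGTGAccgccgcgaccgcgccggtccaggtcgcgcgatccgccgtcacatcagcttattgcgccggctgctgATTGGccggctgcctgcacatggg

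**Figure D1:**
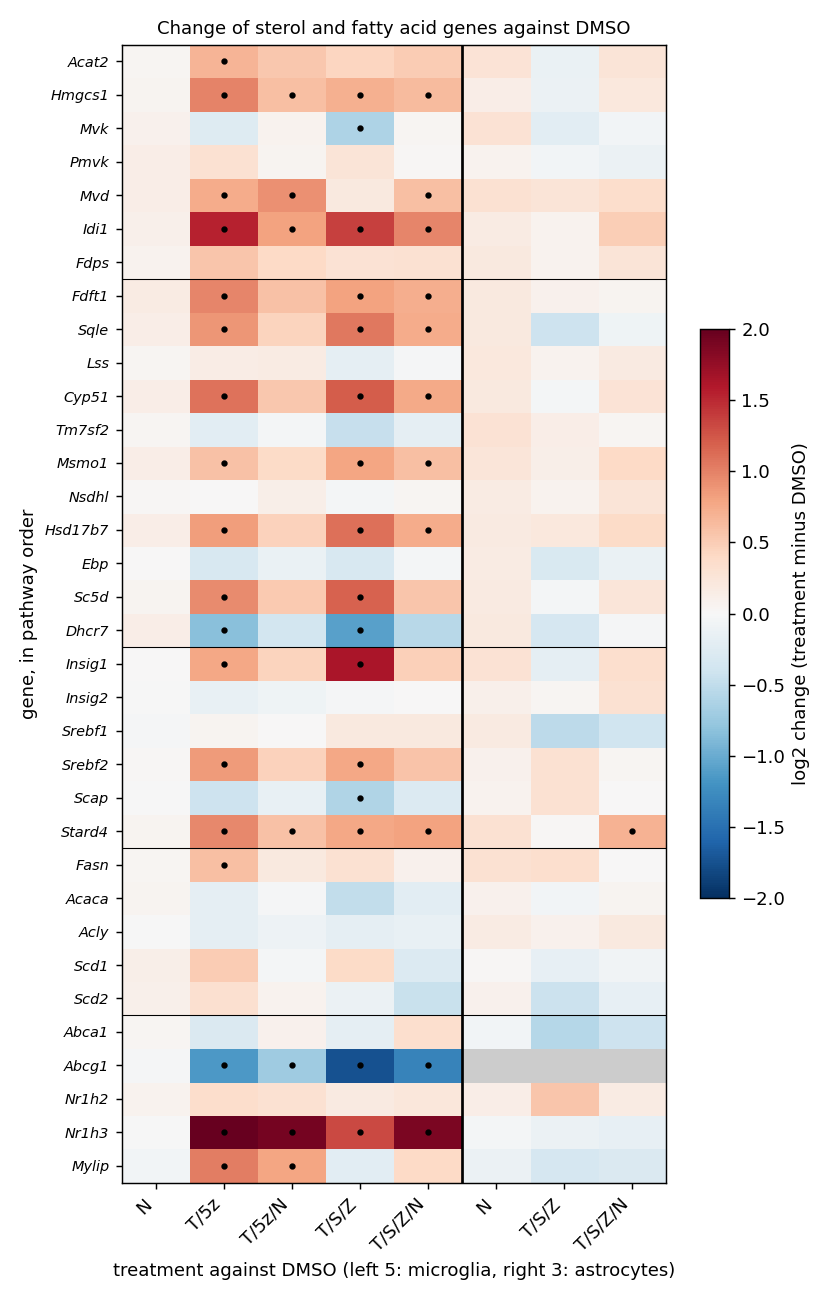
Log2 change of each gene against DMSO, in pathway order from top to bottom (mevalonate steps, sterol steps, SREBP regulators with Stard4, fatty acid synthesis, LXR genes), with microglia in the left 5 columns and astrocytes in the right 3. Dots mark called changes and grey marks Abcg1, which was not in the astrocyte table; dots stand at 18 genes under T/5z and 16 under T/S/Z in microglia and at 1 gene, Stard4 under T/S/Z/N, in astrocytes.

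Each stimulus was compared with DMSO in microglia to ask how the pathway responded. Under T/5z 16 of 34 members rose and 2 fell, or 47.1% and 5.88%, while 11.1% of all genes tested were called higher and 13.3% lower (24.4% in all). The median change of the members was 0.53 and that of all genes tested -0.058. Under T/S/Z 12 members rose and 4 fell, or 35.3% and 11.8%, while 12.2% of all genes were called higher and 17.5% lower (29.6% in all), with medians of 0.23 for the members and -0.085 for all genes. After centring each library on its median 12 members rose and 2 fell under T/S/Z, and the share of higher calls among all genes called moved from 41.1% to 52.7%. Both comparisons use the same DMSO libraries. The other 14 members were called with neither stimulus. Because these are bulk samples, fewer cells of a type and less RNA per cell cannot be told apart. Stimulated microglia also had more RNA of the astrocyte marker list, from 8.86 to 11.0 FPKM in DMSO to 15.3 to 27.0 under T/5z and 16.3 to 25.1 under T/S/Z, against 10.3 to 10.7 in T/5z/N and 6.20 to 7.37 in T/S/Z/N. The fibroblast list of 6 markers went from 6.66 to 9.10 FPKM in DMSO to 12.7 to 21.7 under T/5z and 5.08 to 8.33 under T/S/Z, and the 3 endothelial markers in the table from 6.28 to 8.56 to 3.71 to 5.17 and 2.30 to 2.92. The oligodendrocyte lineage list, with 9 markers in the table, went from 56.3 to 59.2 FPKM in DMSO to 45.8 to 49.6 under T/5z and 45.2 to 54.9 under T/S/Z. The microglial list summed to between 5196 and 5757 FPKM in DMSO, 4530 and 5069 under T/5z and 5082 and 5500 under T/S/Z. The part of these in the members' changes was not tested. 

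The first steps, from acetyl-CoA to isoprenoids, were represented by 7 genes, of which 4 rose under T/5z, where 11.1% of all genes were called higher, and 2 rose and 1 fell under T/S/Z, where 12.2% were called higher and 17.5% lower. Idi1, the isopentenyl diphosphate isomerase, rose the most of the 7. Its log2 values in replicates 1 to 4 were 4.16, 4.21, 4.27 and 3.97 with DMSO, 5.69, 5.59, 5.76 and 5.75 under T/5z, and 5.57, 5.65, 5.48 and 5.39 under T/S/Z, so that every stimulated library lay above every DMSO library. The change was 1.54 (SE 0.071, limma adjusted p 3.81e-06) under T/5z and 1.37 (SE 0.061, adjusted p 1.09e-06) under T/S/Z. Nec-1s lowered Idi1 after T/5z, to 4.93, 4.85, 4.90 and 5.13, a fall of 0.75 on the log2 scale (SE 0.048, adjusted p 1.21e-05), and Idi1 in T/5z/N was still above DMSO by 0.80 (SE 0.091). After T/S/Z the values with Nec-1s were 5.12, 5.10, 5.04 and 5.24, a change of -0.40 (SE 0.066) that was short of the fold threshold, and 0.97 above DMSO.

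Hmgcs1, the synthase that makes HMG-CoA, had log2 values of 5.08, 5.00, 5.05 and 4.83 with DMSO, 5.98, 5.92, 5.98 and 6.08 under T/5z, and 5.76, 5.83, 5.67 and 5.58 under T/S/Z. Neither stimulated group overlapped DMSO. With Nec-1s the values were 5.52, 5.47, 5.61 and 5.78 after T/5z and 5.53, 5.64, 5.62 and 5.72 after T/S/Z, also above every DMSO library. The rise was 1.00 (SE 0.069, limma adjusted p 2.16e-05) under T/5z and 0.72 (SE 0.055, adjusted p 1.71e-05) under T/S/Z. Hmgcs1 remained called against DMSO with Nec-1s, by 0.60 (SE 0.084) after T/5z and 0.64 (SE 0.076) after T/S/Z, but both of these were short of the threshold without replicate 4, where Hmgcs1 was lowest in DMSO, and with 5 added before the log2, and that after T/5z also with quantile normalization.

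Mvk, the mevalonate kinase, went the other way. Its values were 3.87, 3.92, 3.74 and 3.85 with DMSO, 3.22, 3.32, 3.15 and 3.23 under T/S/Z, and 3.76, 3.94, 3.94 and 3.90 under T/S/Z/N. Under T/5z they were 3.58, 3.49, 3.64 and 3.61, and in T/5z/N 3.92, 3.88, 3.95 and 3.91. The T/S/Z libraries were the lowest and those with Nec-1s overlapped DMSO. Mvk fell by 0.62 on the log2 scale under T/S/Z (SE 0.057, limma adjusted p 4.40e-05) and rose by 0.66 (SE 0.055, adjusted p 6.62e-05) when Nec-1s was added. The fall under T/S/Z was short of the fold threshold after centring, quantile normalization or with 5 added before the log2. The rise with Nec-1s was also short of it with 5 added. Under T/5z the change of Mvk was -0.26 (SE 0.066) and not called. Mvd, the mevalonate diphosphate decarboxylase, rose by 0.74 (SE 0.085) under T/5z and was 0.91 (SE 0.12) above DMSO in T/5z/N and 0.60 (SE 0.11) above it in T/S/Z/N, with 0.19 in T/S/Z. The call in T/S/Z/N was lost without replicate 3 or 4 and with 5 added before the log2. Acat2, which condenses acetyl-CoA, rose by 0.68 (SE 0.074) under T/5z. Pmvk and Fdps were not called, with changes between 0.26 and 0.55 with the stimuli.

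The steps from squalene to cholesterol were represented by 11 genes, of which the same counts were called with each stimulus, 6 higher and 1 lower, against 11.1% and 13.3% of all genes under T/5z and 12.2% and 17.5% under T/S/Z. Fdft1 (squalene synthase), Sqle (squalene epoxidase, a rate-limiting step), Cyp51 (the lanosterol demethylase), Msmo1, Hsd17b7 and Sc5d rose, between 0.59 and 1.09 under T/5z and between 0.79 and 1.21 under T/S/Z. Under T/5z and T/S/Z the rises were 0.97 and 0.81 for Fdft1, 0.88 and 1.05 for Sqle, 0.83 and 1.09 for Hsd17b7 and 0.59 and 0.79 for Msmo1. The rise of Msmo1 under T/5z was short of the threshold without replicate 1 or 4, with quantile normalization and with 5 added before the log2, as was that under T/S/Z with quantile normalization. Dhcr7, the last reductase before cholesterol, fell. Lss, Tm7sf2, Nsdhl and Ebp were not called, with changes from -0.46 to 0.16.

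Cyp51 had values of 4.72, 4.69, 4.68 and 4.46 with DMSO, 5.73, 5.63, 5.76 and 5.77 under T/5z, and 5.84, 5.93, 5.82 and 5.78 under T/S/Z. The groups were apart, by 1.09 (SE 0.068, limma adjusted p 1.46e-05) under T/5z and 1.21 (SE 0.056, adjusted p 1.38e-06) under T/S/Z. Adding Nec-1s gave 5.09, 5.08, 5.19 and 5.36 after T/5z and 5.32, 5.36, 5.34 and 5.56 after T/S/Z, changes of -0.54 (SE 0.047) and -0.45 (SE 0.062) that had adjusted p under 0.05 and were short of the fold threshold. Cyp51 in T/S/Z/N was 0.76 (SE 0.087) above DMSO and was called, and in T/5z/N it was 0.54 above and was not.

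Sc5d, the sterol desaturase near the end of the pathway, had values of 4.11, 4.20, 3.96 and 3.72 with DMSO, 4.94, 4.82, 4.99 and 5.05 under T/5z, and 5.14, 5.17, 5.19 and 5.19 under T/S/Z. With Nec-1s the values were 4.58, 4.33, 4.59 and 4.56 after T/5z and 4.38, 4.58, 4.51 and 4.76 after T/S/Z. The T/S/Z libraries were the highest of the 6 treatments, and those with Nec-1s lay between them and DMSO. Sc5d rose by 0.95 (SE 0.11, limma adjusted p 0.00026) under T/5z and by 1.17 (SE 0.087, adjusted p 1.40e-05) under T/S/Z, and it fell by 0.62 on the log2 scale (SE 0.059, adjusted p 0.000115) when Nec-1s was added to T/S/Z. This fall was short of the fold threshold without replicate 1, with quantile normalization and with 5 added before the log2. Adding Nec-1s to T/5z gave -0.43 (SE 0.043), which was not called.

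Dhcr7 fell by 0.83 on the log2 scale (SE 0.066, limma adjusted p 4.59e-05) under T/5z and by 1.09 (SE 0.092, adjusted p 2.81e-05) under T/S/Z, from 3.91 ± 0.042 (SD, n = 4) in DMSO to 3.08 ± 0.13 and 2.82 ± 0.20. No library of either stimulus overlapped DMSO. With Nec-1s it was 3.54 ± 0.056 in T/5z/N and 3.35 ± 0.057 in T/S/Z/N, between the stimulus and DMSO in both, with changes of 0.46 and 0.53 that were not called.

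**Figure D2:**
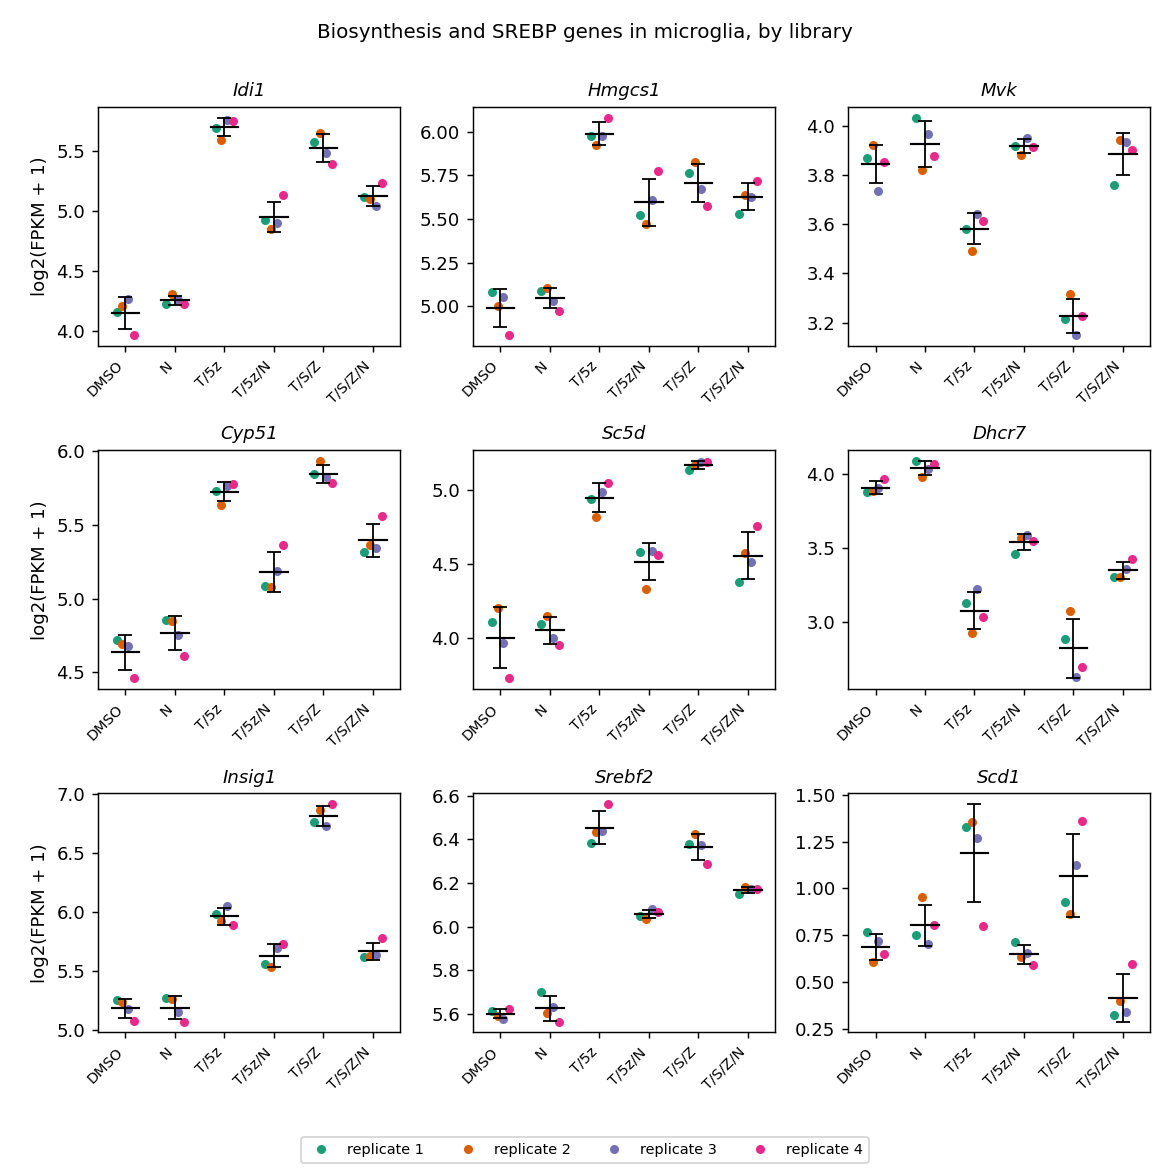
Log2(FPKM + 1) of 9 genes in each microglial library, coloured by replicate, with the mean and SD of 4 libraries in black; each panel has its own axis, which does not start at 0. Idi1, Hmgcs1, Cyp51, Sc5d, Insig1 and Srebf2 lie above DMSO with both stimuli, Mvk and Dhcr7 lie below it, and Insig1 reaches 6.73 to 6.92 under T/S/Z and 5.63 to 5.78 once Nec-1s is added.

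Of the 6 regulators of the pathway, with the sterol carrier Stard4 counted among them, 3 rose under T/5z (11.1% of all genes) and 3 rose and 1 fell under T/S/Z (12.2% and 17.5% of all genes). Insig1, the SREBP target that retains Scap in the endoplasmic reticulum, differed between the stimuli. Its values were 5.25, 5.24, 5.18 and 5.08 with DMSO, 5.99, 5.93, 6.06 and 5.89 under T/5z, and 6.76, 6.86, 6.73 and 6.92 under T/S/Z. The 3 groups did not overlap. Insig1 rose by 0.78 (SE 0.050, limma adjusted p 1.59e-05) under T/5z and by 1.63 (SE 0.065, adjusted p 6.44e-07) under T/S/Z, and T/S/Z was above T/5z by 0.85 (SE 0.066, adjusted p 9.89e-05). Nec-1s brought it to 5.56, 5.54, 5.70 and 5.73 after T/5z and to 5.63, 5.63, 5.64 and 5.78 after T/S/Z, ranges that overlap each other and lie above DMSO. The change with Nec-1s was -1.15 (SE 0.043, adjusted p 2.13e-06) after T/S/Z and was called, and after T/5z it was -0.33 (SE 0.051) and not called.

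Srebf2, which encodes the SREBP protein that governs sterol synthesis, rose by 0.85 (SE 0.047, limma adjusted p 8.08e-06) under T/5z and by 0.77 (SE 0.051, adjusted p 8.04e-06) under T/S/Z, and was at 6.06 ± 0.019 (SD, n = 4) in T/5z/N and 6.17 ± 0.014 in T/S/Z/N, against 5.60 ± 0.020 in DMSO. Its rise under T/S/Z was short of the fold threshold with quantile normalization. Stard4, a carrier of sterol through the cytosol, rose by 0.95 (SE 0.069) and 0.77 (SE 0.068). It was called against DMSO with Nec-1s as well, by 0.59 (SE 0.064) after T/5z, just past the fold threshold and short of it without replicate 3 or 4 or with 5 added before the log2, and by 0.81 (SE 0.057) after T/S/Z. With 5 added before the log2 the rise of Stard4 under T/S/Z and those of Hsd17b7 and Acat2 under T/5z were also short of the fold threshold. Scap fell by 0.60 on the log2 scale (SE 0.066, adjusted p 0.000106) under T/S/Z, a call that was lost after centring, with quantile normalization, with 5 added before the log2 and without replicate 3 or 4, and its change was -0.41 (SE 0.054) under T/5z. Srebf1, the SREBP gene tied to fatty acid synthesis, and Insig2, which is not an SREBP target, were not called, with changes from -0.15 to 0.20.

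Of the 5 genes of fatty acid synthesis 1 was called with a stimulus, which is no larger a share than the 24.4% of all genes called under T/5z and 29.6% under T/S/Z. Fasn, the fatty acid synthase, rose by 0.61 (SE 0.071, limma adjusted p 0.00029) under T/5z, from 2.68 ± 0.048 (SD, n = 4) to 3.28 ± 0.15, and this was lost without replicate 2 and with 5 added before the log2. Acaca, the acetyl-CoA carboxylase, and Acly had changes between -0.49 and -0.18 and were not called with either stimulus, nor was Scd2, with 0.32 (SE 0.078) under T/5z and -0.12 (SE 0.081) under T/S/Z. Scd1 had log2 values of 0.76, 0.61, 0.72 and 0.65 with DMSO, 1.33, 1.36, 1.27 and 0.80 under T/5z, 0.93, 0.86, 1.12 and 1.36 under T/S/Z, and 0.33, 0.40, 0.34 and 0.60 under T/S/Z/N. In T/5z/N they were 0.71, 0.63, 0.66 and 0.59. The lowest group was T/S/Z/N, and no other group reached below 0.59. Scd1 reached the minimum log2 value of 1 needed for testing in 3 T/5z and 2 T/S/Z libraries and in none of the other groups, so that it was tested only through the groups where it was high. It fell by 0.65 on the log2 scale (SE 0.094, adjusted p 0.000762) when Nec-1s was added to T/S/Z, while with 5 added before the log2 the change was -0.20 and not called. The summed astrocyte markers were likewise highest with the stimuli and lowest in T/S/Z/N. In DMSO astrocytes, whose values were normalized separately, Scd1 was at 153 FPKM and Scd2 at 702, with no test against the microglial values. The part of astrocyte RNA in the Scd1 and Scd2 values was not tested.

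The 5 LXR genes went in different directions. Nr1h3, the LXR alpha receptor of macrophages, rose more than any other member under T/5z. Its values were 3.08, 3.10, 3.03 and 3.10 with DMSO, 4.97, 5.15, 4.99 and 5.15 under T/5z, and 4.43, 4.61, 4.29 and 4.25 under T/S/Z. The T/S/Z libraries stood between DMSO and T/5z with no overlap. The rise was 1.99 (SE 0.053, limma adjusted p 6.17e-07) under T/5z and 1.32 (SE 0.072, adjusted p 3.08e-06) under T/S/Z, and T/S/Z minus T/5z was -0.67 (SE 0.072, adjusted p 0.000427), which with 5 added before the log2 was just short of the fold threshold. Nr1h3 was high in both groups with Nec-1s. The values were 5.08, 4.84, 5.00 and 5.02 in T/5z/N and 4.99, 4.95, 4.83 and 5.09 in T/S/Z/N, changes of -0.08 and 0.57 that were not called, and both were above DMSO, by 1.91 and 1.89. Nr1h2, the more widely expressed LXR beta, was not called, with changes of 0.36 and 0.18.

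Abcg1, which exports cholesterol to lipoprotein particles, had values of 4.91, 4.88, 4.94 and 5.05 with DMSO, 3.72, 3.75, 3.81 and 3.89 under T/5z, and 3.34, 3.31, 3.04 and 3.14 under T/S/Z. All stimulated libraries were below all DMSO libraries. Abcg1 fell by 1.15 on the log2 scale (SE 0.046, limma adjusted p 2.26e-06) under T/5z and by 1.74 (SE 0.081, adjusted p 1.42e-06) under T/S/Z. With Nec-1s its values were 4.14, 4.20, 4.37 and 4.22 after T/5z and 3.74, 3.64, 3.70 and 3.37 after T/S/Z, still called below DMSO, by -0.71 (SE 0.060) and -1.33 (SE 0.091). Abca1, the other export pump, was not called with either stimulus, with changes of -0.28 (SE 0.066) and -0.17 (SE 0.061). In T/S/Z/N its values, 7.21, 7.24, 7.20 and 7.20, were above those of every DMSO library (6.82 to 7.00), as for 22.9% of all genes tested. That change was 0.33 and was not called.

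Mylip, the LXR-induced ubiquitin ligase that marks lipoprotein receptors for breakdown, differed between the stimuli. Its values were 5.44, 5.37, 5.38 and 5.17 with DMSO, 6.32, 6.38, 6.30 and 6.44 under T/5z, and 5.06, 5.12, 5.09 and 5.24 under T/S/Z. The T/5z libraries were well above DMSO and the T/S/Z libraries overlapped it. Mylip rose by 1.02 (SE 0.071, limma adjusted p 2.30e-05) under T/5z and had a change of -0.21 (SE 0.078) under T/S/Z, a difference of -1.23 (SE 0.045, adjusted p 7.94e-06) between T/S/Z and T/5z. With Nec-1s its values were 6.07, 6.15, 6.07 and 6.22 after T/5z, a change of -0.24 that was not called, and 5.74, 5.66, 5.73 and 5.81 after T/S/Z, a rise of 0.61 (SE 0.043, adjusted p 3.24e-05) over T/S/Z alone. The rise was short of the fold threshold without replicate 1, after centring and with 5 added before the log2.

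**Figure D3:**
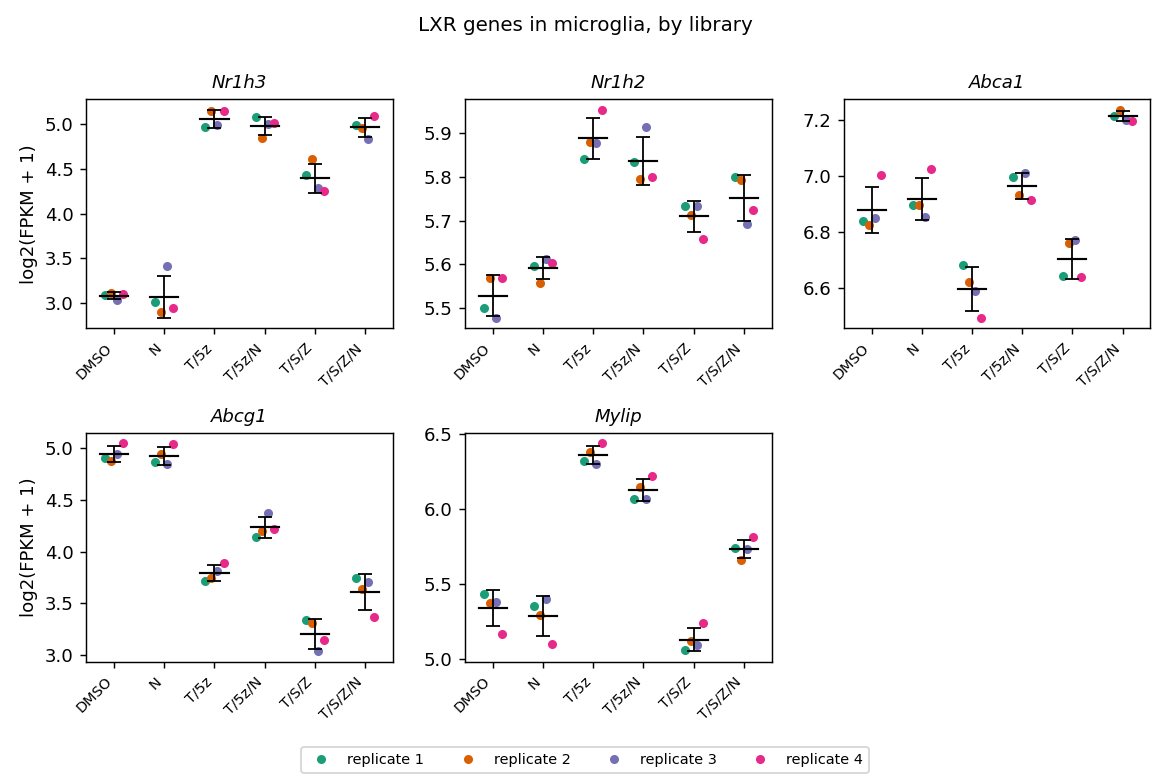
Log2(FPKM + 1) of the 5 LXR genes in each microglial library, coloured by replicate, with the mean and SD of 4 libraries in black; each panel has its own axis, which does not start at 0. Nr1h3 stays between 4.83 and 5.09 in both groups with a stimulus and Nec-1s, Abcg1 is lowest under T/S/Z, and Mylip is high under T/5z but not under T/S/Z.

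Insig1, Nr1h3 and Mylip were the members called between T/S/Z and T/5z, 1 higher and 2 lower, while 9.83% of all genes tested were called there. Abcg1, at -0.5848 (SE 0.086, limma adjusted p 0.00183), was just short of the minimum of 0.5850. Without replicate 1, 2 or 3 the count was 4, with 1 higher and 3 lower. Over the members the changes were below 0 in 23 of 34, with a median of -0.18, and over all genes in 54.3%, with a median of -0.025.

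The addition of Nec-1s asked how much of each change needed the RIPK1 kinase. After T/5z Idi1 alone was called (1 of 34, or 2.94%), against 7.16% of all genes tested, and after T/S/Z 5 were (14.7%), Mvk and Mylip higher and Insig1, Scd1 and Sc5d lower, against 12.1% of all. Without Scd1, which was tested only through its values with the stimuli, 4 were called. At any size of change, 17 of the 34 members had a lower value with adjusted p under 0.05 after T/5z and 6 a higher one. Of all genes tested 21.1% were lower and 27.3% higher. After T/S/Z 11 had a lower and 11 a higher one, while 23.8% of all genes were lower and 34.1% higher. The count after T/5z was 3 when libraries were centred on their median or replicate 4 was left out, and the count after T/S/Z was 3 without replicate 1 and 1 with 5 added before the log2. Centring also moved the share of higher calls among all genes called after T/S/Z from 44.3% to 28.9%. Of the 18 members called under T/5z 1 (5.56%) was called in the opposite direction with Nec-1s, against 25% of all 2563 genes called under T/5z, and 7 (38.9%) were still called against DMSO in T/5z/N, against 47.6%. Of the 16 called under T/S/Z 3 (18.8%) were (Insig1, Sc5d and Mvk), against 31.3% of all 3118 genes called, and 10 (62.5%) were still called in T/S/Z/N, against 38.9%. These contrasts share the libraries of the stimulus alone and of DMSO.

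Compared directly with DMSO, 6 members were higher and 1 lower in T/5z/N, against 6.16% and 6.69% of all genes tested (12.8% in all). They were Nr1h3, Mvd, Idi1, Mylip, Hmgcs1 and Stard4, and Abcg1. The nearest member outside was Fdft1, at 0.58 (0.5842 against a minimum of 0.5850 on the log2 scale). In T/S/Z/N 10 members were higher and Abcg1 was lower, against 6.2% and 7.87% (14.1% in all). The 10 were Nr1h3, Idi1, Stard4, Cyp51, Hsd17b7, Sqle, Fdft1, Hmgcs1, Mvd and Msmo1, between 0.60 and 1.89, and among those not given before were Hsd17b7 at 0.74, Sqle at 0.73, Fdft1 at 0.72 and Msmo1 at 0.60. The call of Msmo1 was lost without replicate 1 or 2, with quantile normalization and with 5 added before the log2. With 5 added before the log2 the calls of Hsd17b7 and Fdft1 were lost too, and the count was 6.

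Whether Nec-1s acted differently after each stimulus was tested as an interaction over the 4 stimulated groups of microglia. Of 34 members 3 were called, 8.82%, against 6.47% of all genes tested. Insig1 was lowered more after T/S/Z, and the difference (the change after T/5z minus that after T/S/Z) was 0.82 (SE 0.078, limma adjusted p 6.76e-06). Mylip was raised after T/S/Z and not after T/5z, with a difference of -0.84 (SE 0.051, adjusted p 1.96e-07). For Nr1h3 the difference was -0.65 (SE 0.11, adjusted p 0.000792), and it was lost without replicate 4 or with 5 added before the log2.

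**Figure D4:**
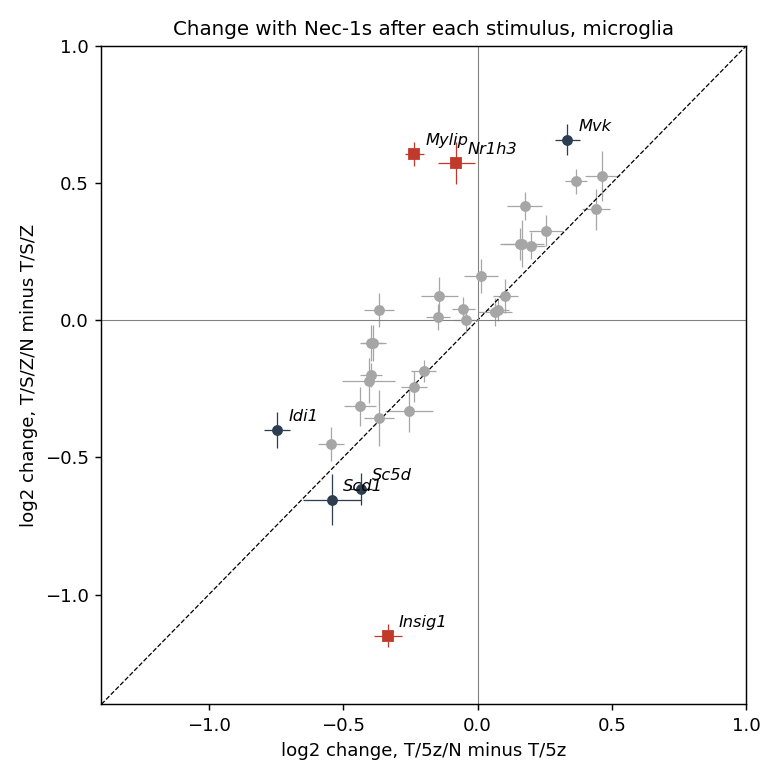
Log2 change with Nec-1s after T/5z (horizontal) and after T/S/Z (vertical) for the 34 genes in microglia, with SE bars; the dashed line marks equal change. Red squares are the 3 genes called for the difference, Insig1 below the line and Mylip and Nr1h3 above it, dark points are other genes called with Nec-1s after at least 1 stimulus, and grey points are the rest.

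Nec-1s alone was compared with DMSO in both cell types. In microglia none of 34 members was called by limma, as were 0% of all genes tested. An unadjusted p under 0.05 was found for 7 of the 34, against 8.48% of all. In 27 of 34 members the change was above 0, against 51.9% of all genes. Changes ran from -0.052 for Mylip to 0.16 for Fdft1. Idi1 with Nec-1s alone was at 4.23, 4.31, 4.26 and 4.23, Insig1 at 5.27, 5.27, 5.15 and 5.08 and Nr1h3 at 3.01, 2.89, 3.41 and 2.94, each overlapping its DMSO range. Of the 34 members 1, Dhcr7, had every Nec-1s library above every DMSO library, as had 1.79% of all genes tested, with a change of 0.13 (SE 0.040, limma adjusted p 0.526). In astrocytes none of 33 was called, against 0.0144% of all genes, and 17 had an unadjusted p under 0.05, against 5.71%. There 30 of 33 changes were above 0, against 50.2% of all genes, with a median of 0.18 against 0.0007 over all genes tested. For 18 of the 33 members every Nec-1s library lay above every DMSO library, against 5.37% of all genes. Stard4 was one of these, at 3.70, 3.86 and 3.99 with DMSO and 4.10, 4.18 and 4.19 with Nec-1s, a change of 0.30 (SE 0.081, limma adjusted p 0.85).

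In astrocytes T/S/Z changed none of the 33 members past the threshold, against 15.4% of all genes tested, with a median of -0.033 for the members and -0.11 for all genes. In limma 14 members had an unadjusted p under 0.05, against 49.7% of all genes. The count called was 1 after centring and 2 without replicate 1 or without replicate 3. After quantile normalization the median of all genes was -0.047, and the share of higher calls among all genes called was 52.0% in place of 41.5%. At any size of change 12 members had an adjusted p under 0.05, 5 higher and 7 lower, while 13.5% of all genes were higher and 26.9% lower. The largest were those of Abca1 (-0.57, SE 0.11, limma adjusted p 0.0054), Nr1h2 (0.55, SE 0.092, adjusted p 0.00351), Srebf1 (-0.53, SE 0.12), Scd2 (-0.43, SE 0.086) and Sqle (-0.41, SE 0.076). Sqle lay at 7.22, 7.06 and 7.25 with DMSO and 6.75, 6.77 and 6.77 under T/S/Z, with no overlap. The 12 members that rose under T/S/Z in microglia had changes here from -0.41 for Sqle to 0.30 for Srebf2. The 5 that had risen most there had -0.19 for Insig1, 0.07 for Idi1, -0.11 for Nr1h3, -0.03 for Cyp51 and -0.05 for Sc5d. The tables were normalized separately, so the difference between cell types was not tested. The fibroblast markers summed to between 612 and 626 FPKM in DMSO astrocytes, 112 to 125 under T/S/Z and 490 to 492 under T/S/Z/N, and the microglial list to between 83.3 and 90.0, 59.4 and 61.2, and 74.3 and 80.4. The oligodendrocyte lineage list, with 9 of 10 markers in the table, went from between 182 and 208 to between 120 and 157 and then 128 and 135, and the 2 endothelial markers in the table from between 16.0 and 17.4 to between 3.29 and 4.02 and then 9.54 and 10.8. Their part in the astrocyte values was not tested.

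Adding Nec-1s to T/S/Z raised 1 of 33 members, Stard4 (3.03%), against 3.1% of all genes tested. The 429 genes behind that share were 274 without replicate 2 and 761 without replicate 3, and Stard4 was called in both. Its values were 3.79, 3.93 and 3.90 under T/S/Z and 4.58, 4.48 and 4.56 under T/S/Z/N, above every other astrocyte library. The rise was 0.66 (SE 0.090, limma adjusted p 0.00852) over T/S/Z and 0.69 (SE 0.087, adjusted p 0.00301) over DMSO, where Stard4 was again the single member called, against 9.08% of all genes, of which 48.1% were higher as deposited and 58.4% after quantile normalization. With 5 added before the log2 both were short of the fold threshold. Insig1 (0.52, limma adjusted p 0.0198), Idi1 (0.42, adjusted p 0.0338) and Acat2 (0.39, adjusted p 0.048) also had adjusted p under 0.05 but were under the fold threshold. With Nec-1s alone their mean log2 values were 6.45, 7.48 and 5.68, against 6.16, 7.32 and 5.41 in DMSO, and none of these changes was called. For 17 of the 33 members every T/S/Z/N library lay above every T/S/Z library, against 21% of all genes. No member was called under T/S/Z, so none could be called in the opposite direction or stay called, against 16.5% and 49.2% of the 2130 genes called there.

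**Figure D5:**
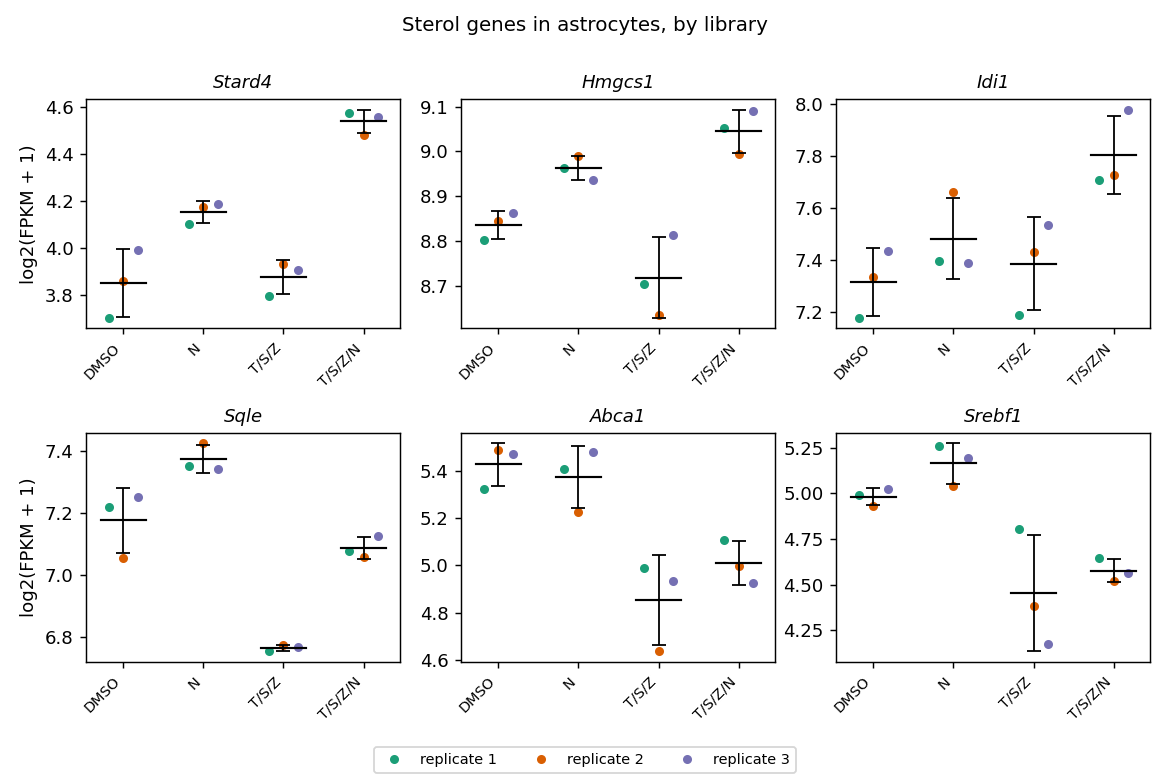
Log2(FPKM + 1) of 6 genes in each astrocyte library, coloured by replicate, with the mean and SD of 3 libraries in black; each panel has its own axis, which does not start at 0. Stard4 is highest in T/S/Z/N (4.48 to 4.58), Sqle is lowest under T/S/Z, and Idi1 and Hmgcs1 under T/S/Z overlap DMSO.

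Other genes of the same pathways were taken from 3 lists, to be read against the 11.1% of all genes tested that were called higher and 13.3% lower under T/5z, and 12.2% and 17.5% under T/S/Z. Of the isoprenoid, SREBP processing and sterol turnover list 1 of 16 rose (Aacs, 0.68) and 2 fell under T/5z in microglia, and 0 rose and 1 fell (Mbtps1, a protease that cuts SREBP proteins, -0.64) under T/S/Z, with list medians of -0.21 and -0.23. The shares were 6.25% higher and 12.5% lower under T/5z and 0% and 6.25% under T/S/Z. Of the fatty acid activation, elongation and desaturation list 5 of 16 rose and 1 fell under T/5z, and 6 rose and 1 fell under T/S/Z, or 31.2% and 6.25%, then 37.5% and 6.25%. Acsl1, an acyl-CoA ligase, rose by 1.89 (SE 0.059) and 1.93 (SE 0.056), and stayed 1.83 and 1.78 above DMSO with Nec-1s, and Fads1, a desaturase, fell by 1.00 and decreased by 1.04 on the log2 scale. Mid1ip1, which promotes fatty acid synthesis, rose by 1.18 (SE 0.054) under T/S/Z and had -0.15 under T/5z, and Nec-1s lowered it after T/S/Z, with a change of -1.34 (SE 0.056).

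Of the transport, esterification and oxysterol list 2 of 17 rose and 7 fell under T/5z, and 2 rose and 6 fell under T/S/Z, or 11.8% and 41.2%, then 11.8% and 35.3%, so that the higher share was near that of all genes and the lower share above it. Ch25h, the hydroxylase that makes an oxysterol ligand, rose by 4.36 (SE 0.091, limma adjusted p 3.70e-07) under T/5z and 6.02 (SE 0.15, adjusted p 9.40e-08) under T/S/Z, and fell by 2.62 (SE 0.082) and 2.90 (SE 0.11) on the log2 scale when Nec-1s was added. Nceh1, a cholesteryl ester hydrolase, fell by 2.11 and 1.39 under T/5z and T/S/Z, Soat1, which esterifies cholesterol, by 1.21 and 1.04, and Rxra, the partner receptor of LXR, fell by 1.21 and 1.23. In astrocytes T/S/Z raised Ch25h by 3.88 (SE 0.093) and Elovl7, a fatty acid elongase, by 2.52 (SE 0.091), with 0 higher and 1 lower of 16, 2 higher and 1 lower of 18 and 2 higher and 2 lower of 19 called in the 3 lists, while 6.39% of all genes tested were called higher and 8.99% lower.

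The annotation marks some genes as confounded, a mark read here as overlap with another gene, so their values may hold reads of a neighbour. Among the members the mark was on Hmgcs1, Mvd, Idi1, Fdps, Fdft1, Lss, Cyp51, Tm7sf2, Insig2, Srebf1, Srebf2, Scap, Acaca, Acly and Scd2 in both tables, on Abcg1 in microglia and on Nr1h3 in astrocytes. In GRCm38 coordinates of the microglial annotation, Idi1 lies on chromosome 13 (8885501 to 8892451), Insig1 on chromosome 5 (28071363 to 28078662), Nr1h3 on chromosome 2 (91184061 to 91195151), Abcg1 on chromosome 17 (31057698 to 31115777) and Mylip on chromosome 13 (45389742 to 45412022).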

How the data were processed

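Polyadenylated RNA was sequenced from 24 microglial and 12 astrocyte libraries. The authors deposited log2(FPKM + 1) values per gene, scaled to a common 75th percentile in OmicSoft Array Studio on the GRCm38 build, with microglia and astrocytes in separate tables. In microglia each gene also had the same mean in every replicate, an adjustment made before deposit that the sources used here do not describe, and the spread of microglial libraries is that left after it. Read counts could not be recovered, so no count test was run.

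Groups followed the labels. Genes with a log2 value of at least 1 in at least 4 microglial or 3 astrocyte libraries were fitted with limma 3.58.1 (R 4.3.3), with a trended prior, on the libraries of the groups compared, with the replicate number as a block, since the study's methods used a paired test. There were 13 comparisons. A call needed a fold change over 1.5 and a Benjamini-Hochberg adjusted p under 0.05 over all genes tested in the table. The interaction used the 4 stimulated groups of microglia. The script was tested on simulated data. Alternatives left out the block, fitted all groups together, changed the filter, the added value and the scaling, used unadjusted p-values and left out each replicate.

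Members and lists were chosen with earlier results of these data known. By rule, values in every library are given for the 6 called members with the largest change in each stimulus comparison and for every member called for Nec-1s against a stimulus, other members by range, count or value, and up to 4 called genes with the largest change from each other list. Depth was estimated from the spacing of low values, and 64.0% to 80.9% of those values lay within 0.1 of a whole multiple. Promoters were RefSeq windows of GRCm38.p6, read with python 3.11.15.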

Additional observations from a re-analysis of the deposited data

Results flagged for a closer look

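In 12 of 204 groups of 4 microglial libraries, 1 library lay far from the others by Dixon's criterion, which chance alone gives in about 1 in 20 groups. Of these, 8 were in replicate 4, 3 in replicate 1 and 1 in replicate 2. In DMSO, Abca1 was 7.00 in replicate 4 (next 6.85), Cyp51 4.46 in replicate 4 (next 4.68), Srebf1 4.33 in replicate 4 and Fdft1 3.74 in replicate 1. With T/5z, Fdft1 was 4.70 and Scd1 0.80 in replicate 4, against 1.27 for the nearest Scd1 library. In T/5z/N, Ebp was 4.30 in replicate 4, Pmvk 3.79 in replicate 1 and Sc5d 4.33 in replicate 2. In T/S/Z/N, Insig1 was 5.78 in replicate 4 and Acat2 3.27 in replicate 1, and with Nec-1s alone Mvd was 3.61 in replicate 4. All are log2(FPKM + 1) values.

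The change with Nec-1s differed between the stimuli for 3 genes in the interaction test, by 0.82 for Insig1, -0.65 for Nr1h3 and -0.84 for Mylip (the change after T/5z minus that after T/S/Z, limma).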

How the results depend on the processing

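The 66 called changes of the members were recomputed under the alternatives, which gave 719 values. None changed direction and 42 of the 66 changes remained called in every alternative run. The others fell short of the fold threshold in at least 1, mostly with 5 added before the log2 (22 of the calls), which shrinks the change of low genes by construction, then with quantile normalization (8) and without replicate 4 (7). Counts of called members that moved by over 1.5 times were those of T/5z/N against T/5z (3 after centring in place of 1), T/S/Z/N against T/S/Z (1 with 5 added before the log2 in place of 5), T/S/Z/N against DMSO (6 with 5 added in place of 11), and in astrocytes T/S/Z against DMSO (1 after centring in place of 0) and T/S/Z/N against T/S/Z and against DMSO (0 with 5 added in place of 1). Apart from the added value the cause was not tested. Leaving out 1 replicate gave 1 to 3 members for T/5z/N against T/5z, 3 to 7 for T/S/Z/N against T/S/Z, and 0 to 2 for T/S/Z against DMSO in astrocytes.

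With no replicate block the counts of called members were the same in every comparison, 18 under T/5z and 16 under T/S/Z. In microglia the adjustment before deposit had already removed differences between replicate means, so leaving out the block could hardly change those calls. Correlations between same-numbered libraries ran from -0.458 to 0.257 in microglia. The adjustment removes a shared shift there, so these values cannot show whether the numbers pair the libraries. In astrocytes the correlations ran from -0.144 to 0.411, which does not show such pairing. The block was kept because the study used a paired test.

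Over all genes, 1463 were called under T/5z and 1705 under T/S/Z when the mean log2 had to reach 3, 1484 and 1633 after adding 5, and 2650 and 3199 with no filter, in place of 2563 and 3118. The part of depth in the calls was not tested.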
